A study of Drosophila melanogaster with 12 samples.

Results

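The genotype effect described here is the difference between midgut progenitors with and without RNA interference against trithorax (trx), averaged over 2 feeds. For each gene the trxRNAi minus control difference was taken under sucrose and under DSS (dextran sulfate sodium, which injures the gut epithelium), on the log2 (value + 2) scale, and the mean of the 2 differences was tested. All 12 libraries of the series entered, and 8399 of 17617 genes reached a value of 10 or more in 3 or more libraries and were tested. Genes past the test were then separated into those with like differences under both feeds and those whose difference came mainly from 1 feed.

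All flies were mated females of the fruit fly Drosophila melanogaster, 3 to 4 days old at the shift to 29 °C, where they stayed for 7 days. Controls came from the driver line esgtsGFP crossed to w1118, and trxRNAi flies from the same driver line crossed to UAS-trxRNAi (BDSC#33703). For the last 48 h they received 5% sucrose or 3% DSS, and cells positive for the driver's green fluorescent protein were then sorted from the gut. Each of the 4 groups held 3 libraries, read from the 3′ ends of transcripts. Both genotypes carry the driver and passed through the same warm period. A single RNA interference line was used, so a difference between the crosses other than the knockdown cannot be told apart from it, and the labels do not say whether replicates are separate sets of flies, so p-values measure the spread between these samples.

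In the fly midgut, intestinal stem cells divide and give rise to absorptive enterocytes through Notch signalling, and to hormone-secreting enteroendocrine cells where Notch signalling is low. Enteroendocrine cells store peptide hormones in dense core granules, cut them from precursors with dedicated enzymes and release them through the same calcium-triggered machinery that neurons use. Trithorax is a histone methyltransferase known for keeping genes active against Polycomb silencing, and Ptx1, a homeodomain factor named in the study's title, is the gene through which the study places trx in enteroendocrine specification.

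The deposited values are scaled whole numbers whose totals ran from 5362337 to 6520981 per library. Control DSS replicate 3 lay furthest from its group, with a root mean square deviation of 0.5004 on the log2 scale. The groups stood in an order that the labels do not lead one to look for. The closest pair was trxRNAi under sucrose and control under DSS, at a root mean square distance of 0.444, followed by control under sucrose and trxRNAi under DSS at 0.569. The genotypes were 0.675 apart within sucrose and 0.794 apart within DSS. For 5610 of the 8399 genes the DSS minus sucrose difference had opposite signs in the 2 genotypes, and over genes those differences correlated at r = -0.695, a description of 2 sets of libraries with no sample in common. Whether feeding DSS moves the genotypes in opposite directions, or the feed labels of 1 genotype are exchanged, cannot be told apart from these files. The averaged genotype effect is the same number in both cases, whereas every statement on 1 feed below holds for the feeds as labelled.

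The RNAi target was lower on average. Values of trx were 1114, 1217 and 1313 in control and 668, 667 and 448 in trxRNAi under sucrose, and 841, 1041 and 652 in control and 715, 758 and 808 in trxRNAi under DSS. The genotypes were fully separate under sucrose and overlapped under DSS. The averaged difference was -0.59 ± 0.14 (log2, standard error, SE; limma with Benjamini-Hochberg adjusted p = 0.0206), made of -1.05 under sucrose and -0.13 under DSS, and these 2 differed from each other (interaction adjusted p = 0.0416). The call ended without control DSS replicate 2 (limma adjusted p = 0.0537) and without trxRNAi DSS replicate 1 (limma adjusted p = 0.0504). The gene lies on chromosome 3R from 14263358 to 14286903 (dm6, minus strand) and overlaps CG14839 and an antisense RNA, whose reads cannot be told apart from its own without strand.

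Averaged over the feeds, 315 of 8399 genes passed an adjusted p of 0.05 in limma, which is 3.75% of those tested. Higher in trxRNAi were 95 genes, or 1.13%, and lower were 220, or 2.62%. These counts rest partly on single libraries: without control DSS replicate 3 they were 283 higher and 344 lower, and without another library between 42 and 92 higher and between 142 and 237 lower. Like differences under both feeds, defined as the same sign and a larger difference at most 3 times the smaller, were found for 202 of the 315 genes (2.41% of all tested), 68 higher (0.81%) and 134 lower (1.6%). Among those 202, no trxRNAi library overlapped a control library within either feed for 149, against 253 of all 8399 genes, or 3.01%, that were separate under both feeds in the same direction, 98 higher (1.17%) and 155 lower (1.85%). The 202 were chosen on the same values, so their high share follows largely from that choice and is no separate support. The difference came mainly from DSS for 89 genes and mainly from sucrose for 24, and 40 of these 113 had opposite signs under the 2 feeds. Passing the test in each feed on its own, in the same direction, was rarer, with 5 genes higher and 33 lower, while 55 genes passed for the average and in neither feed.

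The size rule has no gap at its limit. Just inside it stood pcs, with -0.85 under sucrose and -0.29 under DSS, and CCHa1, with -0.75 and -2.17, and just outside stood Mcm3, with 0.89 and 0.28, and CG46320, with -0.43 and -1.38. When trxRNAi under sucrose was set against control under DSS, and trxRNAi under DSS against control under sucrose, the same averages split into like differences for 287 of the 315 genes, with opposite signs for 1. Of these, 195 were like differences in both pairings.

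**Figure D1:**
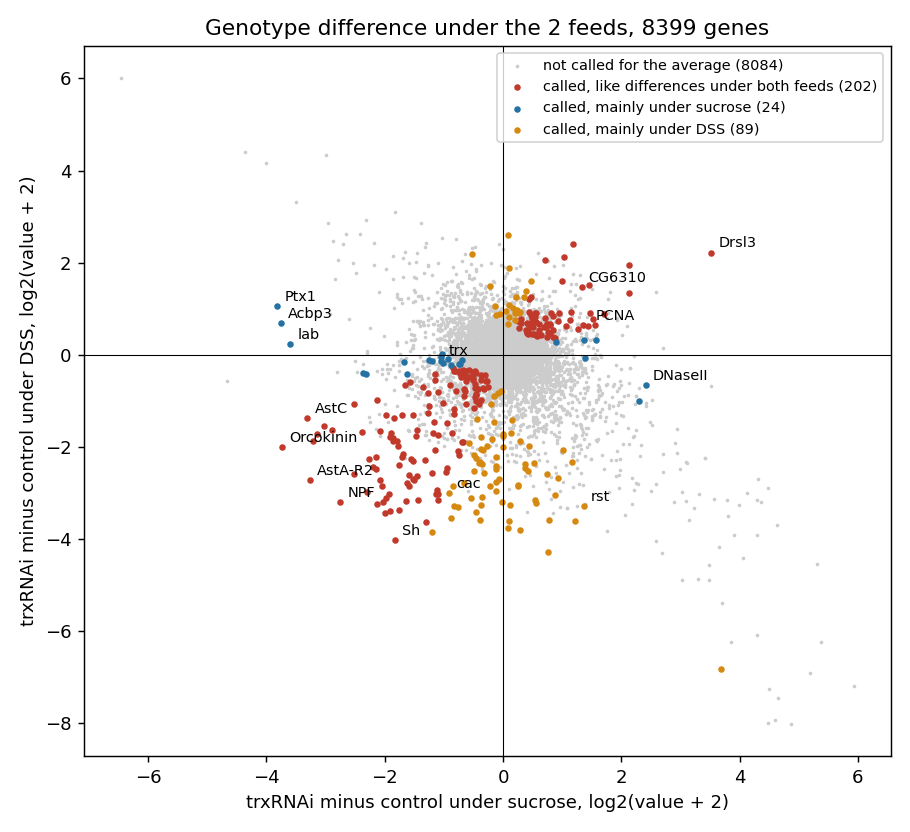
Each point is 1 of 8399 genes, with the trxRNAi minus control difference under sucrose on the x axis and under DSS on the y axis (both log2 of value + 2). The 202 called genes with like differences lie at the lower left and upper right. Of the 24 and 89 called mainly from 1 feed, 40 had opposite signs and lie at the upper left or lower right. The others of them lie nearer an axis, and the uncalled genes spread towards the lower right.

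Peptide hormones of enteroendocrine cells fell together under both feeds. Of 11 tested hormone genes, 8 were lower (72.7%, against 2.62% of all genes) and 0 higher in trxRNAi, all 8 with like differences. The list's median was -2.03 against 0.0067 over all tested genes. NPF, neuropeptide F, a class II hormone of the midgut, stood at 11446, 10175 and 7491 in control and 2156, 1324 and 1005 in trxRNAi under sucrose, and at 12080, 11462 and 7481 against 794, 1249 and 1340 under DSS. Every trxRNAi library was far below every control library, and the averaged difference was -2.97 ± 0.21 (SE, limma adjusted p = 7.31e-06), a 7.86-fold lower level. Fewer enteroendocrine cells in the sort and less hormone RNA per cell cannot be told apart in such bulk samples.

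AstC, allatostatin C, which marks class I enteroendocrine cells, stood at 4073, 3516 and 2746 against 465, 290 and 296 under sucrose and at 1386, 974 and 991 against 372, 417 and 489 under DSS. Its averaged difference was -2.34 ± 0.15 (SE, limma adjusted p = 1.15e-07), the smallest p of all genes, and it was larger under sucrose (-3.31) than under DSS (-1.38; interaction adjusted p = 0.000362), where the control was itself lower. Orcokinin, a neuropeptide also made in class I cells, had 4681, 5626 and 3546 against 445, 262 and 331 under sucrose and 3234, 2012 and 1424 against 380, 504 and 742 under DSS. It too was separate under both feeds, at -2.87 ± 0.22 (SE, limma adjusted p = 1.08e-05).

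Tk, tachykinin, a class II hormone that regulates lipid metabolism in the gut, went the other way between feeds. Its values were 777, 794 and 483 against 247, 249 and 451 under sucrose and 842, 743 and 1001 against 64, 117 and 149 under DSS, with the genotypes closest to each other in trxRNAi replicate 3 under sucrose. The averaged difference was -2.08 ± 0.22 (SE, limma adjusted p = 9.23e-05), with -3.02 under DSS and -1.14 under sucrose (interaction adjusted p = 0.0146). AstC and Orcokinin thus differed more under sucrose and Tk more under DSS, each by its own interaction test, while for NPF the difference of -0.45 between the feeds did not pass (interaction adjusted p = 0.623).

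The other 4 lower hormones had smaller values. AstA, allatostatin A, ran from 142 to 291 in control and from 29 to 68 in trxRNAi under sucrose, and from 93 to 109 and from 33 to 64 under DSS, at -1.55 ± 0.23. Dh31, a diuretic hormone that also drives gut contraction, was at -2.03 ± 0.38, and Gpb5, a glycoprotein hormone subunit, at -2.18 ± 0.42 with no trxRNAi value above 4. CCHa1 was at -1.46 ± 0.32, and its call ended in 7 of 12 fits that left out a library, at most at an adjusted p of 0.0783 without trxRNAi sucrose replicate 2. ITP, an ion transport peptide, was at 0.23 ± 0.14 and did not pass (limma adjusted p = 0.404).

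CCHa2 and sNPF did not pass for the average because their differences had opposite signs. CCHa2, a nutrient-regulated hormone, was at 186, 163 and 145 against 804, 779 and 1960 under sucrose and at 1064, 581 and 4385 against 55, 74 and 82 under DSS. Its differences were 2.69 and -4.29, and their gap passed the interaction test (limma adjusted p = 0.00178). For sNPF, short neuropeptide F, control values under sucrose were 2, 0 and 0 and trxRNAi values under DSS were all 0, against 16 to 72 and 8 to 147 in the other groups.

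Summed over the list, hormones made up 0.326% ± 0.065 (SD, n = 3) of the library total in control and 0.0935% ± 0.0159 in trxRNAi under sucrose, and 0.330% ± 0.043 against 0.0602% ± 0.0110 under DSS. The averaged difference was -0.251 percentage points, against a within-group SD of 0.040. The sum of the 9 enteroendocrine markers ran from 15408 to 22145 in control and from 3947 to 5521 in trxRNAi under sucrose, and from 16639 to 19922 against 1928 to 3054 under DSS, without overlap. Of the 9 markers 7 were lower, against 2.62% of all genes. All 9 except pros are hormones of the list above, and pros was not among the 7. This sum and count therefore repeat the hormone values and are no separate result on cell type. Of 8 planned progenitor markers 7 were found, and Dl was not found under that symbol. The 7 summed to 4803 to 5615 against 4663 to 5599 under sucrose and to 4246 to 6476 against 4024 to 4638 under DSS. For the average 0 of them passed (limma, with 1 lower at an unadjusted p of 0.05). The interaction test passed for 2 of the 7, against 8.86% of all genes. In the separate list of 10 progenitor genes, 3 were lower under DSS and 1 was higher under sucrose (limma). Over all genes, 5.62% were lower under DSS and 2.36% higher under sucrose. Under sucrose mira was at 694, 572 and 355 against 980, 702 and 531, and under DSS at 1557, 1317 and 652 against 237, 248 and 251. spdo was separate in opposite directions, at 13, 39 and 39 against 146, 128 and 139 and at 77, 76 and 123 against 33, 20 and 32.

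Genes that process and release the hormones were lower with them. Of 19 genes for prohormone processing and exocytosis, 13 were lower (68.4%, against 2.62% of all genes) and 0 higher, with a list median of -1.21. Like differences were found for 6, while 6 came mainly from DSS and 1, svr, mainly from sucrose. 7B2, the chaperone of the prohormone convertase, stood at 317, 209 and 171 against 87, 69 and 66 under sucrose and at 260, 221 and 248 against 26, 30 and 42 under DSS. The genotypes were separate under both feeds, at -2.22 ± 0.17 (SE, limma adjusted p = 1.62e-06).

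IA-2, a membrane protein of dense core vesicles, was the most abundant of the group. It had 5836, 4335 and 3608 against 1768, 1361 and 1900 under sucrose and 6309, 4528 and 10381 against 647, 762 and 866 under DSS, at -2.29 ± 0.18 (SE, limma adjusted p = 8.09e-06). It overlaps CG4375 on the same strand. Pal2, of the enzyme family that amidates peptide ends, was at -2.47 ± 0.24 and amon, the prohormone convertase that 7B2 serves, at -2.10 ± 0.27.

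Averages nearer 0 were found for Phm and svr. Phm, the hydroxylating enzyme of amidation, was at -0.70 ± 0.11 and svr, a carboxypeptidase, at -0.68 ± 0.11, the latter with -1.25 under sucrose and -0.10 under DSS. The vesicle fusion genes Syt1, a calcium sensor, Rab3, a vesicle GTPase, and nSyb, a vesicle fusion protein, were lower for the average at -1.27, -1.21 and -0.78, but their differences under sucrose were -0.12, -0.35 and 0.13. Syt4, another synaptotagmin, cancelled almost completely, from 7, 6 and 2 against 104, 115 and 106 under sucrose to 75, 68 and 103 against 3, 2 and 1 under DSS, and its average of -0.17 did not pass (limma adjusted p = 0.808). The calls of Sytalpha and Syt7 ended in 5 and 9 of 12 fits with a library left out, up to an adjusted p of 0.0750 and 0.106, both without trxRNAi sucrose replicate 2.

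Receptors for gut hormones were low genes, and 2 of 5 tested were lower (40%, against 2.62% of all genes). AstA-R2, a receptor for allatostatin A, was at 46, 35 and 18 against 8, 0 and 0 under sucrose and at 33, 31 and 7 against 1, 0 and 4 under DSS, at -2.99 ± 0.51 (SE, limma adjusted p = 0.00235). NPFR, the NPF receptor, stood between 17 and 27 in control and between 2 and 7 in trxRNAi, at -1.83 ± 0.32. The other allatostatin A receptor in the list, AstA-R1, was separate in opposite directions, from 60 to 111 against 3 to 7 under sucrose and from 3 to 8 against 60 to 84 under DSS, and its average was -0.10 ± 0.28.

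**Figure D2:**
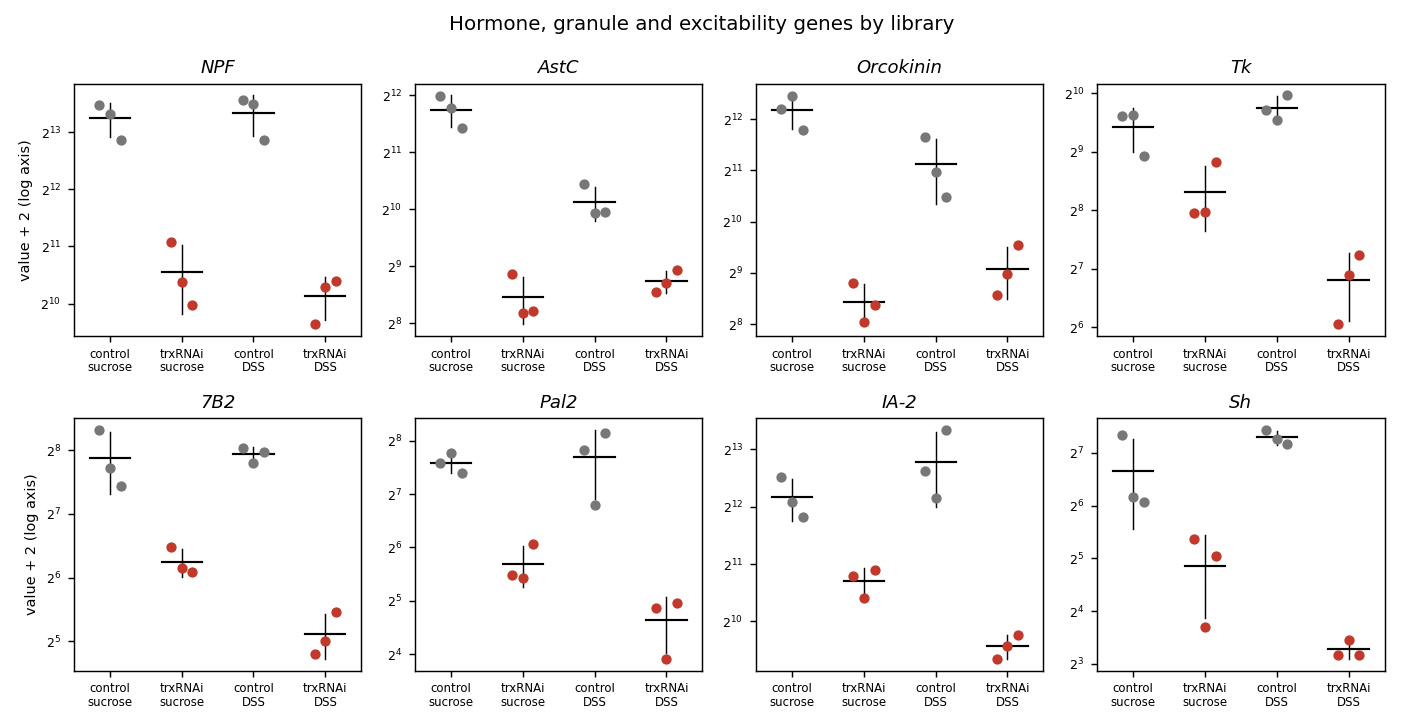
Value + 2 on a log axis for 8 genes of hormones, granules and excitability in each library (points). The bar is the group mean and the line the SD (n = 3) of the values before the log. In all 8 panels the trxRNAi libraries lie below the control libraries of the same feed, for NPF at 794 to 2156 against 7481 to 12080.

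The genes with large falls included Sh, cac, stol and Octalpha2R, which neurons also use; no list of ion channels was counted. Sh, a voltage-gated potassium channel, was at 160, 70 and 65 against 39, 11 and 31 under sucrose and at 171, 151 and 142 against 7, 9 and 7 under DSS, which gave -2.92 ± 0.29 (SE, limma adjusted p = 1.08e-05). The calcium channel subunit cac stood at -1.96 ± 0.19, with -0.91 under sucrose and -2.998 under DSS (interaction adjusted p = 0.0018), and its partner stol, an alpha2delta subunit, at -2.55 ± 0.30 with -2.52 and -2.58. Octalpha2R, an octopamine receptor, was at 102, 87 and 67 against 18, 16 and 24 under sucrose and at 84, 60 and 92 against 7, 4 and 10 under DSS, at -2.61 ± 0.24 (SE, limma adjusted p = 8.09e-06).

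Of the 7 genes listed as neuronal markers, Sh, brp and nSyb were lower (42.9%, against 2.62% of all genes), and nSyb also belongs to the exocytosis list. elav, the defining neuronal RNA-binding protein, was at -0.07 ± 0.14 (limma adjusted p = 0.851), with values between 681 and 1257 in the 12 libraries. The sodium channel para was at -1.40 ± 0.45 and did not pass (limma adjusted p = 0.0897). The neuronal marker sum, without Sh and para and made up mostly of elav, ran from 867 to 1116 against 1056 to 1343 under sucrose. Under DSS it ran from 1076 to 1648 against 754 to 1008. Within feeds, 6 of the 7 listed genes were lower and 0 higher under DSS (limma), against 5.62% and 3.82% of all genes. Under sucrose 1 was higher and 1 lower. The part of nerve cells in these differences was not tested.

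Of 9 tested fate factors of the enteroendocrine lineage, 2 were lower for the average (22.2%, against 2.62% of all genes) and 0 higher. Under sucrose 5 were higher and 1 lower, against 2.36% and 2.32% of all genes. Under DSS 0 were higher and 6 lower, against 3.82% and 5.62%. The interaction passed for 8 of the 9, against 8.86% of all genes. tap, a basic helix-loop-helix factor expressed in enteroendocrine cells, had like differences: it was at 140, 129 and 112 against 53, 51 and 46 under sucrose and at 199, 154 and 141 against 15, 4 and 21 under DSS, at -2.47 ± 0.26 (SE, limma adjusted p = 2.62e-05), the larger part from DSS (interaction adjusted p = 0.00827).

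Ptx1 was the second. Its values were 218, 176 and 162 against 13, 15 and 7 under sucrose, and 78, 50 and 33 against 77, 115 and 140 under DSS, so the genotypes were far apart under sucrose and overlapped by 1 unit under DSS with trxRNAi on the higher side. The average of -1.38 ± 0.24 (SE, limma adjusted p = 0.00263) therefore joins -3.82 and 1.06, whose gap of 4.87 passed the interaction test (limma adjusted p = 2.89e-06). Set against the other feed's control, trxRNAi was lower both times. The gene spans 30912754 to 30930682 on chromosome 3R (dm6, plus strand) and shares its strand with a long noncoding RNA inside that span.

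The remaining fate factors passed for neither direction of the average. pros, the homeodomain factor that defines enteroendocrine cells, was at 508, 402 and 300 against 1021, 853 and 1256 under sucrose and at 891, 553 and 1870 against 94, 106 and 104 under DSS, and its average of -0.93 ± 0.24 narrowly missed (limma adjusted p = 0.0559). phyl, an adaptor for degrading the repressor Ttk, was at 2, 1 and 2 against 76, 53 and 58 under sucrose and at 38, 16 and 113 against 6, 3 and 2 under DSS. Its differences of 4.13 and -3.01, and likewise those of the proneural gene ase (3.11 and -2.35) and of mirr (1.18 and -2.12), were separate in opposite directions and averaged to 0.56, 0.38 and -0.47, none of which passed.

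Falls outside these lists were spread over several functions. Ir85a, of the ionotropic receptor family, was at -2.56 ± 0.44 and superdeath at -2.64 ± 0.52, with values that reached 89 and 51 in control and 11 and 17 in trxRNAi. snRNA:U6:96Aa was at -2.68 ± 0.33, but it lies inside Esyt2 on the same strand and has near-identical copies, so its reads are uncertain. PGRP-SC1b, an amidase that degrades peptidoglycan, was at -2.65 ± 0.61 with control values from 2 to 61, and its call ended in 5 of 12 fits with a library left out, at most at 0.0622 without trxRNAi sucrose replicate 1.

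Digestive enzymes were called lower about as often as all genes, 2.94% against 2.62%. Of 34 tested, 30 had an average below 0 and the list median was -0.77, but 1 passed, Mal-A2, a maltase, at -1.27 ± 0.30 (SE, limma adjusted p = 0.0232), and it lost its call in 3 of 12 fits with a library left out (limma adjusted p = 0.0535 without control sucrose replicate 2, 0.0617 without control sucrose replicate 1 and 0.0618 without trxRNAi DSS replicate 2). Their summed share varied widely within groups, from 0.0396% to 0.223% in control under sucrose alone. Of 12 enterocyte markers 1 was lower, Npc2d, whose call ended in 9 such fits, at most at 0.112 without control DSS replicate 2. Eip93F and ftz-f1, nuclear factors of the ecdysone cascade, were lower at -0.43 ± 0.10 and -0.41 ± 0.11 with separate genotypes under both feeds, but these calls ended in 6 and 9 such fits, at most at 0.0638 without trxRNAi sucrose replicate 1 and 0.119 without trxRNAi sucrose replicate 2.

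Some DNA replication genes were higher in trxRNAi. Of 22 S phase genes, 6 were higher (27.3%, against 1.13% of all genes) and 0 lower, 21 had an average above 0, and the median was 0.60 against 0.0067 over all genes. Mcm6, a subunit of the replicative helicase, was at 65, 49 and 69 against 145, 181 and 122 under sucrose and at 105, 84 and 97 against 130, 128 and 170 under DSS. The genotypes were separate under both feeds, and the average was 0.91 ± 0.16 (SE, limma adjusted p = 0.00277).

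PCNA, the sliding clamp, was at 264, 120 and 129 against 418, 494 and 404 under sucrose and at 342, 153 and 334 against 424, 343 and 451 under DSS, at 1.03 ± 0.22 (SE, limma adjusted p = 0.0202). dup, which loads the helicase, was at 35, 18 and 25 against 84, 44 and 53 and at 26, 23 and 42 against 59, 60 and 55, at 1.04 ± 0.24 (SE, limma adjusted p = 0.0186). Orc1, of the origin recognition complex, was at 1.29 ± 0.33, also with like differences, and Mcm7 and Mcm3, further helicase subunits, at 0.85 ± 0.21 and 0.59 ± 0.15 came mainly from sucrose. The interaction passed for 0 of these 6 genes (limma; 2 at an unadjusted p of 0.05), so a difference between feeds was not shown for them.

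Only Mcm6 of the 6 kept its call in all 12 fits that left out a library. The number of S phase genes called ranged from 2, without trxRNAi sucrose replicate 1, trxRNAi sucrose replicate 2, trxRNAi DSS replicate 1 or trxRNAi DSS replicate 3, to 10 without control DSS replicate 3, and all were higher. dup missed without trxRNAi sucrose replicate 1 (limma adjusted p = 0.0683), PCNA missed in 4 fits (at most 0.0588, without trxRNAi sucrose replicate 2), and Mcm7, Mcm3 and Orc1 missed in 8, 9 and 9. Of 25 mitosis genes tested, 0 passed for the average (limma; 1 was higher at an unadjusted p of 0.05) and the median was 0.02, with a median of 0.76 under sucrose and -0.71 under DSS; tum, a cytokinesis regulator, for example, was at 19, 18 and 17 against 86, 64 and 65 under sucrose and at 75, 44 and 85 against 34, 37 and 56 under DSS.

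Single genes that rose with like differences included transporters and a chitinase. SLC22A, a carnitine and organic cation transporter family member, was at 29, 19 and 62 against 102, 85 and 94 under sucrose and at 23, 52 and 57 against 124, 124 and 118 under DSS, separate both times, at 1.49 ± 0.26 (SE, limma adjusted p = 0.00314); its gene overlaps PolH on the other strand. CG6310 was at 87, 56 and 102 against 368, 189 and 118 and at 79, 86 and 76 against 262, 230 and 191, at 1.40 ± 0.23 (SE, limma adjusted p = 0.00235). Cht2, a chitinase, had 110, 106 and 132 against 221, 245 and 170 and 131, 105 and 115 against 188, 224 and 220, at 0.84 ± 0.14 (SE, limma adjusted p = 0.00164), with differences of 0.85 and 0.84.

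LBR, the lamin B receptor of the nuclear envelope, picked after its values were seen, was at 0.93 ± 0.14 with 0.95 and 0.91 under the 2 feeds. Drsl3, a drosomycin-like antimicrobial peptide, had the largest rise of the called genes whose highest group mean reached 30, at 2.87 ± 0.50 (SE, limma adjusted p = 0.00354), from 4, 1 and 1 to 47, 32 and 47 under sucrose and from 8, 0 and 18 to 72, 28 and 16 under DSS, where 1 library overlapped. Pvr, a growth factor receptor, was at 0.62 ± 0.13. Thymidylate synthase (Ts), at 1.10 ± 0.27, and CG7997, CG34456, snoRNA:lola-d, CG7149, timeout and CG9752, also among the 10 largest such rises, lost their calls in 5 to 9 of the 12 fits with a library left out, up to an adjusted p of 0.146 for CG9752 without trxRNAi sucrose replicate 1.

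**Figure D3:**
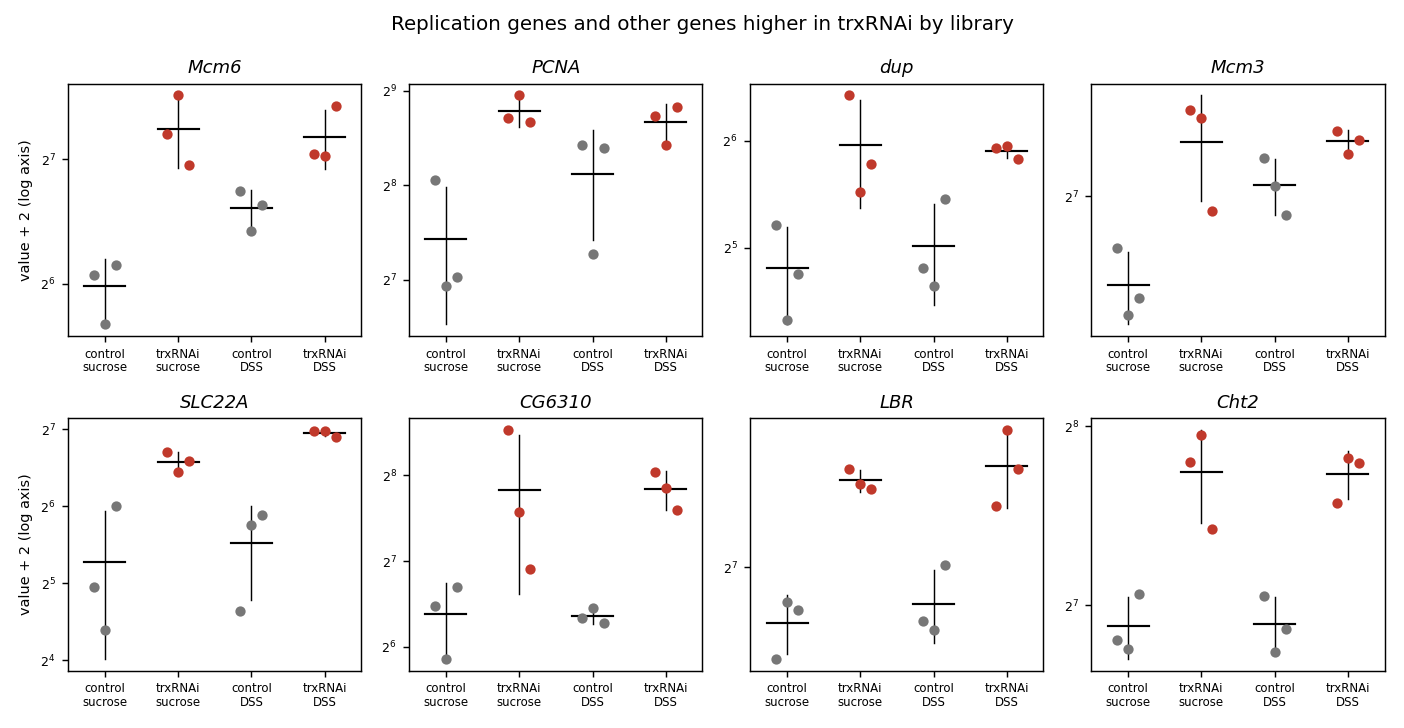
Value + 2 on a log axis for 8 genes higher in trxRNAi for the average, by library (points). The bar is the group mean and the line the SD (n = 3) of the values before the log. In every panel except Mcm3, where the difference came mainly from sucrose, the trxRNAi group means are well above both control means; for SLC22A the trxRNAi libraries sit at 85 to 124 and the control libraries at 19 to 62.

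Few genes of the respiratory chain and the ribosomes passed: 3.03% of complex I genes, 4.17% of mitochondrial and 2.33% of cytosolic ribosomal protein genes were higher, against 1.13% of all genes, on 1 to 3 genes each. All 33 tested complex I genes had an average above 0, with a median of 0.30 (0.27 under sucrose and 0.39 under DSS), but 1, ND-PDSW, passed, and 0 to 2 passed when a library other than control DSS replicate 3 was left out and 9 without that library. Of 72 mitochondrial ribosomal protein genes 60 were above 0, with a median of 0.21, and 3 passed: mRpL2 at 0.70 ± 0.15 kept its call in every fit with a library left out, while mRpL54 and mRpL19 each lost theirs in 8. Of 86 cytosolic ribosomal protein genes, with medians of -0.12 under sucrose and 0.40 under DSS, 2 were higher, RpL30 and RpS3A, and both came from DSS: RpL30 was at 8850, 9139 and 8197 against 17937, 14783 and 15962 there, and at 12792, 12816 and 12793 against 13097, 13443 and 10762 under sucrose. RpL30 may share reads with snoRNA:Me28S-A2113 and RpS3A with snoRNA:CD-24, whose annotated spans overlap theirs on the same strand. RpS3A lost its call without trxRNAi sucrose replicate 2 (limma adjusted p = 0.0537).

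Differences mainly under sucrose were few. lab, the Hox gene that marks the copper cell region of the midgut, was at 44, 35 and 26 against 1, 1 and 1 under sucrose and at 13, 8 and 13 against 13, 14 and 13 under DSS. All trxRNAi sucrose libraries held a single unit and the DSS groups were level, which gave -1.68 ± 0.30 for the average (SE, limma adjusted p = 0.00353) and an interaction of 3.82 (limma adjusted p = 0.00043). Acbp3, an acyl-CoA binding protein, was at 204, 235 and 127 against 11, 12 and 12 under sucrose and at 36, 17 and 28 against 63, 39 and 32 under DSS, at -1.53 ± 0.24 for the average.

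Acbp2, of the same family, was at -0.92 ± 0.19, with -1.68 under sucrose and -0.16 under DSS. CG31323 and CG31086, which overlap on 1 strand and may share reads, were at -1.38 ± 0.26 and -1.37 ± 0.26. Of rises, DNaseII, an acid nuclease, was at 113, 60 and 130 against 479, 548 and 537 under sucrose but at 234, 219 and 255 against 163, 135 and 148 under DSS, so the genotypes were separate in opposite directions and the average of 0.88 ± 0.16 (SE, limma adjusted p = 0.00449) was the remainder. Ncc69, a sodium potassium chloride cotransporter, did the same, with 2.31 and -1.01, and its call for the average of 0.65 ended in 9 of 12 fits with a library left out, at most at 0.108 without trxRNAi sucrose replicate 1. CG7453 was at 0.66 ± 0.14, with 1.39 and -0.07 under the feeds, and missed without trxRNAi sucrose replicate 1 (limma adjusted p = 0.0521).

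Differences mainly under DSS were mostly falls, 68 of 89. So were those mainly under sucrose, 18 of 24, and all called genes, 220 of 315. Cell adhesion genes of the immunoglobulin superfamily were among the falls under DSS: of 19 tested, 4 were lower for the average (21.1%, against 2.62% of all genes) and 0 higher. ed, an adhesion protein of epithelial junctions, was at 1137, 1230 and 985 against 1063, 950 and 911 under sucrose and at 1511, 2120 and 1168 against 337, 455 and 546 under DSS, at -1.01 ± 0.15 for the average (SE, limma adjusted p = 0.000822). rst was at 126, 123 and 59 against 254, 249 and 259 under sucrose and at 258, 420 and 314 against 31, 27 and 37 under DSS, so that opposite differences of 1.37 and -3.29 left -0.96 ± 0.19, and its gene overlaps its relative kirre.

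The guidance protein gene beat-IIa, at -1.05 ± 0.21, also came from DSS, while dpr10, at -2.21 ± 0.42, was alike. TrpA1, a channel that senses irritants in enteroendocrine cells, was at 30, 14 and 5 against 12, 7 and 3 under sucrose and at 49, 32 and 51 against 2, 3 and 3 under DSS, at -2.06 ± 0.39 (SE, limma adjusted p = 0.00514). CG12194, CG6184 and tbc were at -2.52, -2.21 and -1.99, each with over 3 times the difference under DSS. heca, listed with progenitors, was at -0.52 ± 0.12, from 13007, 14638 and 9976 to 5318, 7209 and 7832 under DSS, and its call ended in 7 of 12 fits with a library left out, at most at 0.0637 without control DSS replicate 1.

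Rises under DSS included mnd, an amino acid transporter, at 52, 73 and 88 against 229, 204 and 209 there and at 101, 169 and 121 against 184, 184 and 165 under sucrose. Its average was 1.03 ± 0.16 (SE, limma adjusted p = 0.00112). CG8620 was at 303, 443 and 430 against 1366, 1221 and 1795 under DSS and overlapped under sucrose, at 1.00 ± 0.15 (SE, limma adjusted p = 0.000972). CG15093, at 0.84 ± 0.19, had -0.52 and 2.19 under the 2 feeds, with its call lost in 6 of 12 fits with a library left out, at most at 0.0698 without trxRNAi sucrose replicate 1.

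**Figure D4:**
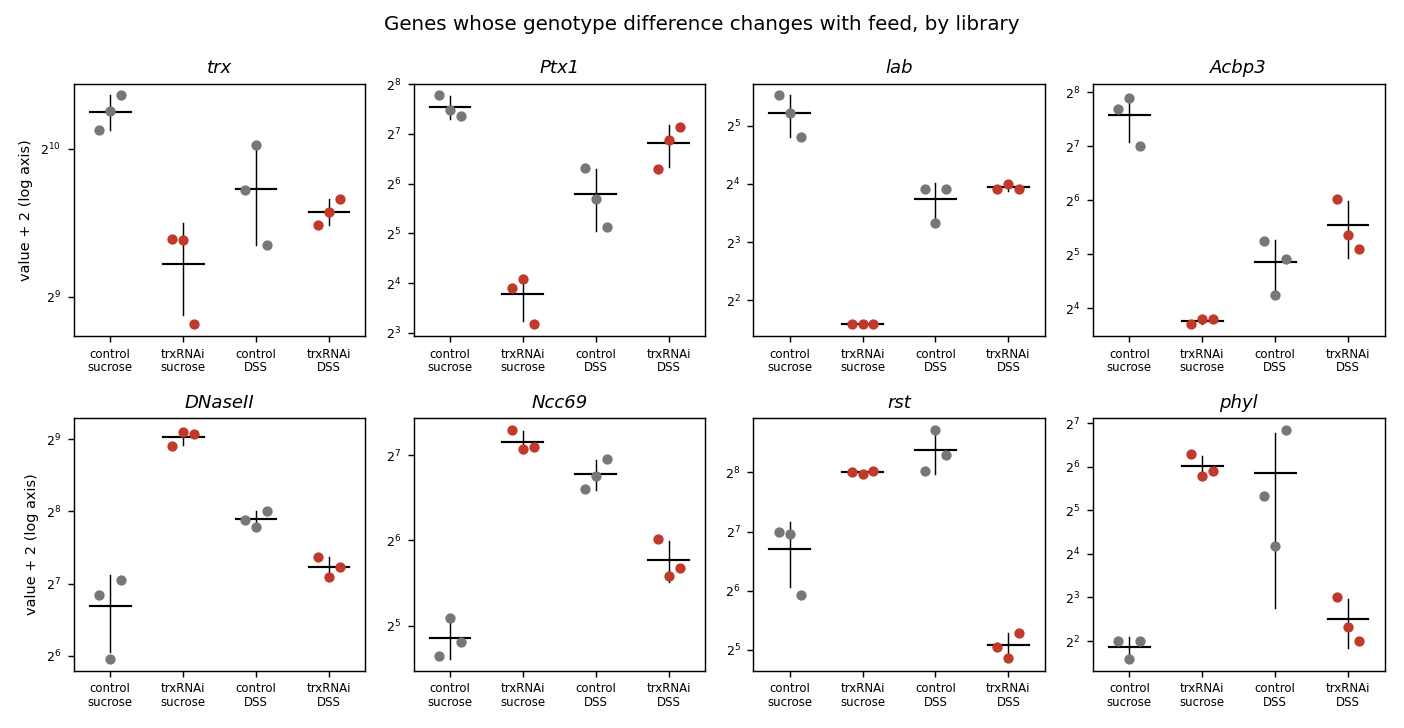
Value + 2 on a log axis for 8 genes whose genotype difference changed with the feed, by library (points). The bar is the group mean and the line the SD (n = 3) of the values before the log. trx, Ptx1, lab and Acbp3 differ mainly under sucrose, where Ptx1 sits at 7 to 15 against 162 to 218; DNaseII, Ncc69, rst and phyl differ in opposite directions, and phyl was not called for the average.

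An average near 0 did not mean that genotype made no difference. The interaction passed for 744 genes (8.86% of 8399), 303 with the higher difference under DSS (3.61%) and 441 with the lower (5.25%), and the genotypes were separate under both feeds in opposite directions for 454 genes (5.41%), against 253 in the same direction. Within feeds, 393 genes (4.68%) passed under sucrose and 793 (9.44%) under DSS, and 744 genes that passed in a feed did not pass for the average. Under scaling to the mean total, the split of the within-feed calls moved from 198 higher (2.36%) and 195 lower (2.32%) to 268 and 148 under sucrose, and from 321 (3.82%) and 472 (5.62%) to 201 and 595 under DSS, and that of the interaction to 167 and 599. Of the genes with like differences, 10 of 202 passed the interaction test, as did 81 of the 113 others. The class rule and the interaction use the same 2 differences, so this contrast follows largely from the rule.

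Lysozymes had the widest opposite differences of the lists. LysD was at 8, 5 and 3 against 233, 561 and 187 under sucrose and at 544, 1284 and 321 against 9, 5 and 5 under DSS, that is 5.37 and -6.23, and its average of -0.43 ± 0.35 did not pass (limma adjusted p = 0.572). LysB and LysE had the same pattern, but the Lys genes are near-identical copies, so reads may be split between them. Of 17 Notch pathway and target genes, 7 were higher and 0 lower under sucrose, and 5 were lower and 0 higher under DSS. Over all genes, 2.36% were higher under sucrose and 5.62% lower under DSS. Against 8.86% of all genes, 7 of the 17 passed the interaction test. Of these, E(spl)m8-HLH was at 2, 0 and 12 against 102, 87 and 94 and at 51, 33 and 91 against 19, 3 and 4, and E(spl)mgamma-HLH had 1.97 and -2.26.

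Of 17 Notch pathway genes 1 passed for the average, E(spl)malpha-BFM, an inhibitor of Notch signalling output, at -0.63 ± 0.11 (SE, limma adjusted p = 0.00348), with -0.20 under sucrose and -1.06 under DSS. N itself was at -0.13 and Su(H), the pathway's DNA-binding factor, at 0.10, and neither passed (limma adjusted p = 0.6 and 0.821).

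**Figure D5:**
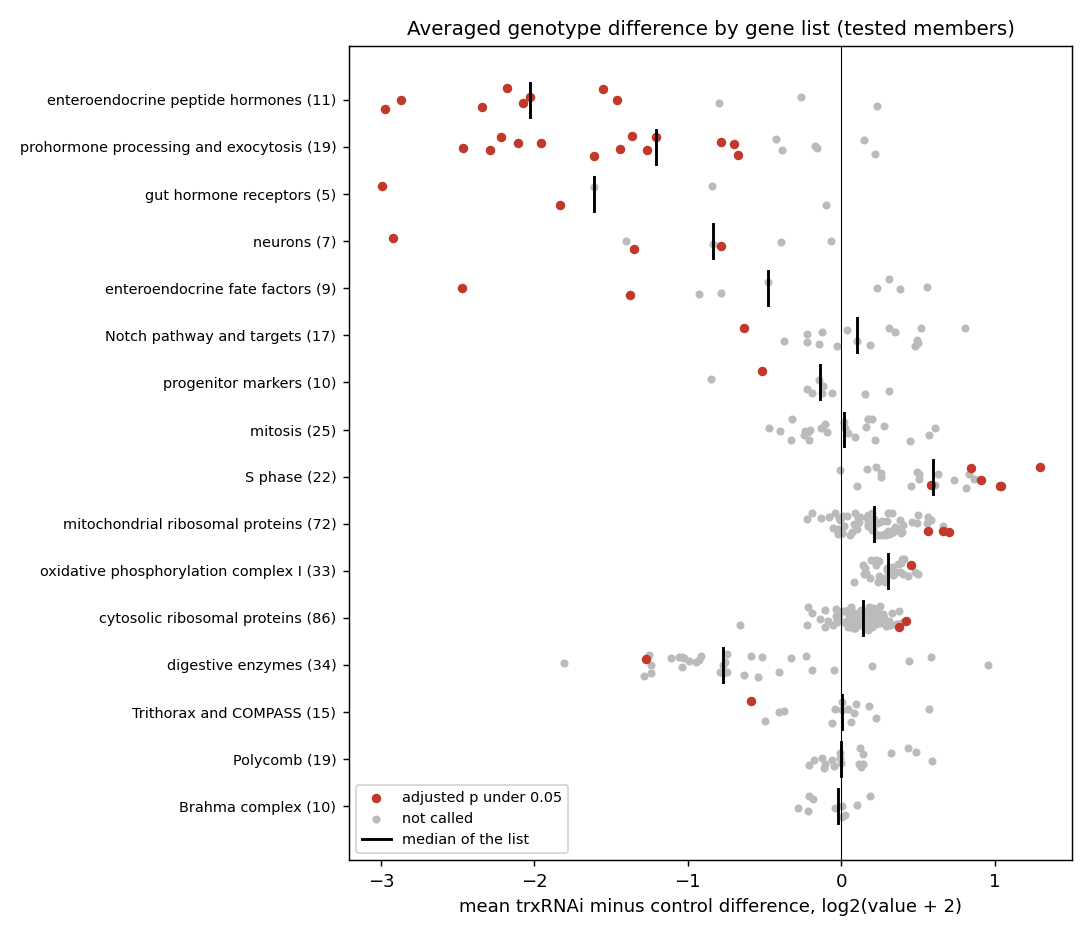
Each point is a tested gene of 1 of 16 lists, placed by its mean trxRNAi minus control difference (log2 of value + 2), with genes past an adjusted p of 0.05 in red, the list's median as a bar and the number tested in brackets. Hormone and prohormone genes lie mostly below -1, at medians of -2.03 and -1.21, S phase genes lie mostly above 0, and Polycomb and Brahma genes scatter around 0.

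For lists of other chromatin regulators the counts lay near the 3.75% of all genes that passed, and nothing is read from them. Of 15 Trithorax and COMPASS genes trx was the 1 that passed, and ash2, a core subunit, came next at -0.50 ± 0.15 (limma adjusted p = 0.0702). Of 19 Polycomb genes and 10 Brahma remodelling genes 0 passed (limma; 2 higher and 1 lower at an unadjusted p of 0.05), with medians of -0.003 and -0.02, and phol, a DNA-binding Polycomb recruiter, came nearest at 0.44 ± 0.13 (limma adjusted p = 0.0674). Without trxRNAi sucrose replicate 3, 2 Polycomb genes were higher. Likewise 0 of 168 genes passed (limma; 12 higher and 15 lower at an unadjusted p of 0.05) in the JAK/STAT (9), EGFR (18), Hippo (13), Wingless (13), BMP and activin (13), and insulin and TOR (15) lists and among 21 chaperones, 33 proteasome genes, 20 proton pump genes and 13 genes of metal handling.

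Markers of other cell types gave these values. Of the hemocyte markers eater was at 0 in all libraries and 5 of 6 had a mean below 10, so that their sum was mostly crq, which was separate in opposite directions under the feeds (-0.78 and 1.04). Of the tracheal markers verm was at 0 and the sum stayed between 84 and 128. Visceral muscle markers summed to 64 to 161 over all libraries, and fat body markers to 12 to 45. Of 6 tested visceral muscle markers 1 was lower in trxRNAi, against 2.62% of all genes, and nothing is read from 1 low gene. This was up, a troponin T, at 24, 12 and 15 against 4, 4 and 3 under sucrose and at 8, 4 and 16 against 2, 1 and 4 under DSS. Its average was -1.50 ± 0.39 (SE, limma adjusted p = 0.039), and the call ended in 11 of 12 fits with a library left out, at most at 0.0867 without trxRNAi DSS replicate 2. Their part in the results was not tested.

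By chromosome, the share called ran from 3.38% on chromosome 2L to 4.76% on chromosome 4, where 3 of 63 tested genes passed, against 3.75% overall. Protein-coding genes made up 301 of the 315, of 237 ncRNA genes 2 passed (0.844%), both lower, and of 177 small nucleolar RNA genes 7 passed (3.95%), 2 higher and 5 lower, counts that moved between 0 and 6 and between 1 and 8 with a library left out.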

How the data were processed

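RNA of sorted progenitors was sequenced from the 3′ end of transcripts, and groups and replicate numbers were read off the titles of the samples. Per the submitters' processing notes the build was dm6, and the tools listed with no role were limma, edgeR, DESeq2, DESeq, Bowtie2, HISAT2 and bcl2fastq; which program counted reads, over which annotation and whether by strand is not given in the sources consulted. The deposited values, treated as a score, are whole numbers in which low classes are missing or doubled, as rounding of scaled counts leaves, so count tests were not run and total RNA per cell cannot be compared. Totals limit the precision of low genes, and no interval from read counts is given because the scaling factors are unknown.

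Values entered limma 3.58.1 (statmod 1.5.0, R 4.3.3) after adding 2 and taking log2, so that changes of low genes come out too small, with 1 mean per group, an intensity trend and robust variance, checked on simulated data. Adjustment was by Benjamini and Hochberg's method over all 8399 genes, with a threshold of 0.05. Symbols were taken from Ensembl's annotation for this assembly, with 17520 of 17617 identifiers matched; the overlaps named are between annotated gene spans. Named genes were trx and Ptx1; among called genes whose highest group mean was at least 30, the 10 largest rises and falls with like differences and the 5 largest each way mainly under sucrose and mainly under DSS; and, from every list, up to 4 members of lowest p. Not all of them are printed, and further list members are. The members, the 41 gene lists and the tests were chosen with earlier results of these data known. A planned permutation test of summed shares is not reported, since the lists were so chosen. Alternatives were 2 rescalings, 2 other filters, 2 other pseudocounts, plain variances, a replicate block, other class rules and each library left out; counts per list with a library left out, and the exchange of feeds between controls, were added after seeing the data. The marker escargot was not analysed here.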

Additional observations from a re-analysis of the deposited data

Results flagged for a closer look

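For 34 named genes that were called for the average, the genotype difference under DSS and that under sucrose differed by limma's interaction test over all genes; each value below is the DSS difference minus the sucrose difference on the log2 scale. A positive value means that trxRNAi stood higher relative to control under DSS than under sucrose. All 34 rest on the feeds as labelled, and the exchange of feed labels in 1 genotype cannot be told apart from them.

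Among hormones, granule genes, ion channels and fate factors, the value was 1.93 for AstC and 1.73 for Orcokinin, which fell more under sucrose. It was -1.88 for Tk, -1.26 for 7B2, -1.70 for IA-2, -2.08 for cac, -2.20 for Sh and -2.33 for tap, which fell more under DSS. Ptx1 had 4.87 and trx 0.92. The listed neuronal markers brp and nSyb had -1.78 and -1.82.

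Genes that fell mainly under sucrose had 3.82 for lab, 4.45 for Acbp3, 1.52 for Acbp2, 1.96 for CG31323 and 1.88 for CG31086. Genes that rose mainly under sucrose had -3.08 for DNaseII, -3.32 for Ncc69 and -1.46 for CG7453. Genes that fell mainly under DSS had -2.64 for CG12194, -2.64 for CG6184 and -3.21 for tbc, and the adhesion genes ed, rst and beat-IIa had -1.63, -4.65 and -2.82. E(spl)malpha-BFM had -0.86. Genes that rose mainly under DSS had 2.51 for tRNA:Pro-CGG-2-2, 1.12 for mnd, 1.79 for CG8620 and 2.71 for CG15093. RpL30, RpS3A and snoRNA:Me28S-A2113 had 0.94, 0.60 and 0.98, and the first and last of these may share reads.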

How the results depend on the processing

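Among the 79 named genes that were called, 46 stayed called under all 20 alternatives and 0 reversed. Under scaling to the mean total, the 95 higher and 220 lower genes became 72 and 224. The 95 higher genes became 63 with no filter, 47 with plain variances and 18 at an absolute log2 difference of at least 1, and from 42 to 283 with a library left out. The 220 lower genes became 136 at that minimum, and from 142 to 344 with a library left out. The 202 like differences became 38 when each feed had to pass, and ranged from 119 to 417 with a library left out; the 113 genes mainly under 1 feed ranged from 66 to 210 and the 40 with opposite signs from 23 to 61. The highest value each time was without control DSS replicate 3. The trx main effect stayed -0.59 with plain variances (limma adjusted p = 0.0765) and ranged from -0.68 to -0.49 with a library left out. Interaction calls, Ptx1 and the summed shares kept their side throughout. The cause of these shifts was not tested.

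Of 18 pairs of same-numbered libraries, 7 had a correlation of deviations over 0.1, in a range from -0.200 to 0.276, as did 6 of 36 pairs with different numbers, in a range from -0.291 to 0.353, and 5 of 12 libraries correlated best with their own number, so not every same-numbered pair deviated together and replicate numbers were not taken as pairs. With a replicate block, 124 genes were higher and 273 lower, like differences numbered 259, genes mainly under 1 feed 138, opposite signs 48 and interactions 784, with trx at -0.59 and Ptx1 at -1.38; no named call ended and 8 were added. Low values limit the list members with single-digit values, where 1 unit moves the log2 value by a large part of the difference.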

Other observations

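The hormone falls did not depend on which feed was paired with which. In trxRNAi under sucrose against control under DSS, NPF differed by -2.83, AstC by -1.68, Orcokinin by -2.63 and Tk by -1.49, and in trxRNAi under DSS against control under sucrose by -3.12, -3, -3.11 and -2.66. CCHa2, whose differences of 2.69 and -4.29 within feeds had opposite signs, was at -0.38 and -1.22 in this pairing. These pairings use the same libraries as the averages and add no independent test.

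Of 30 glutathione S-transferase genes, enzymes that conjugate toxic compounds, 2 of the theta class were higher and 1 of the epsilon class was lower. Called in all were 10% of the list, against 3.75% of all genes. GstT3 was at 113, 110 and 140 in control and 187, 163 and 176 in trxRNAi under sucrose, and at 142, 98 and 116 against 260, 205 and 172 under DSS, an average of 0.68 ± 0.15 (limma adjusted p = 0.0125). GstT1 was at 0.58 ± 0.12, mainly from DSS. GstE9 was at -1.41 ± 0.33, from 86, 43 and 28 to 8, 22 and 19 under sucrose, and its call ended in 5 of 12 fits with a library left out, at most at 0.0698 without trxRNAi sucrose replicate 1. The RNA scaRNA:MeU4-A65, which guides modification of a spliceosomal RNA, fell at -2.08 ± 0.36, with 18 to 58 in control and 2 to 12 in trxRNAi.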
